A study of Mus musculus with 6 samples.

Results

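Killer lectin-like receptors are membrane proteins with a C-type lectin fold that natural killer (NK) cells and some T cells use to sense MHC class I molecules, stress-induced ligands and other lectins on neighbouring cells. Inhibitory forms signal through tyrosine motifs in their own tails, and activating forms signal through adaptor proteins such as Tyrobp and Hcst. Most of the family sits together on mouse chromosome 6 in a stretch known as the NK gene complex. Of 31017 genes measured in all 6 single-cell libraries, 7 are described here. Klrd1 encodes CD94, the partner chain of NKG2 receptors. Klrk1 encodes NKG2D, an activating receptor. Klrb1b and Klrb1c encode NKR-P1 receptors, an inhibitory and an activating form, and Klrb1c is the NK1.1 antigen of C57BL/6 mice. Klra4 and Klra8 encode the activating Ly49 receptors Ly49D and Ly49H, and Nkg7 encodes a protein of cytotoxic granule membranes that is not a lectin. The members were chosen by measured values: Klrd1 and Klrk1 were selected on their place among the leading genes of mature dendritic cells (DCs) in the Ndrg2-knockout (KO) culture, and wound NK-like cells were named as the cells to set beside them. Levels in that culture against the untreated culture are therefore a description, and nothing is read from how large they are.

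The study asked what loss of Ndrg2, a member of the NDRG family of stress-response genes, does to DCs used to treat skin wounds. DCs were grown from bone marrow of wild-type C57BL/6J mice with GM-CSF, and cells in suspension were taken. The untreated culture received no agent, the VD3 culture received vitamin D3 (calcitriol, 1e-06 M) for 24 h from day 7, and the Ndrg2-KO culture was nucleofected with Cas9 protein carrying a mix of 3 guide RNAs against Ndrg2. The wounds were treated with hydrogels seeded with control DCs, with hydrogels seeded with Ndrg2-KO DCs, or with blank hydrogels, and were taken on day 10 from 5 mice a group. How many of these mice a library holds is not stated. Mice were 6 weeks old and of both sexes. The methods name wild-type C57BL/6J and diabetic db/db mice, and the sample labels do not give the strain of the wounded mice. The paper sets day 10 by the healing curves of its wild-type wounds. The untreated culture was not nucleofected, so the edit and the nucleofection cannot be told apart in the cultures. The labels call the control DCs of the wounds untreated, whereas the methods describe control guide RNAs for them. The edited culture is a mix of cells with different edits, not a clone. Each group is a single 10x Genomics 3′ library, so there was no replicate of any group and no test between groups was possible.

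A cell was kept if it had 300 genes or more, fewer than 100000 unique molecular identifiers (UMIs) and less than 10% of them from mitochondrial genes. In the untreated culture 7257 of 7866 barcodes were kept, with 132574308 UMIs and a median of 15804 a cell. The VD3 culture kept 8825 of 9794 barcodes, 116461484 UMIs and a median of 12089. The Ndrg2-KO culture kept 7969 of 9132 barcodes, 143627482 UMIs and a median of 16316. The cultures were thus of like depth. Among the wounds, 1948 of 2711 barcodes were kept with control DCs (29675507 UMIs, median 10795), 5681 of 7538 with Ndrg2-KO DCs (49240341, median 4415) and 3403 of 4027 with blank hydrogel (34905741, median 5603). The wounds were shallower than the cultures and differed among themselves, which bears on shares of cells more than on levels. Levels are UMIs of a gene per 1000000 UMIs of the cells summed (CPM). A 3′ library counts each RNA molecule once, so levels of different genes are compared on this scale without scaling to length. Brackets give exact 95% intervals, which cover counting error only and not the spread between cultures or mice.

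Ndrg2, the edited gene, stood at 4.62 CPM (613 UMIs) in the untreated culture, 1.42 CPM (165 UMIs) in the VD3 culture and 0.884 CPM (127 UMIs) in the Ndrg2-KO culture. In mature DC-like cells it stood at 6.29, 1.65 and 1.45 CPM in the same order. It was therefore low in both treated cultures, with a log2 ratio to untreated of -2.39 (-2.67 to -2.11) in the Ndrg2-KO culture and -1.71 in the VD3 culture. A 3′ tag lies away from the cut sites and is still counted from an edited transcript, so these values check the edit only weakly. In the wounds Ndrg2 stood at 6.10, 3.33 and 3.29 CPM in the order just given, and most of it came from fibroblast-like cells, at 10.3, 10.4 and 8.84 CPM. No NK-like cell held an Ndrg2 UMI.

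Klrd1, the CD94 chain, stood at 2.36 CPM (2.11 to 2.64; 313 UMIs) in the untreated culture, 0.661 CPM (0.522 to 0.826; 77 UMIs) in the VD3 culture and 12.5 CPM (11.9 to 13.1; 1796 UMIs) in the Ndrg2-KO culture. Klrk1, the NKG2D receptor, stood at 14.2 CPM (13.6 to 14.9; 1885 UMIs), 4.71 CPM (4.32 to 5.12; 548 UMIs) and 25.2 CPM (24.4 to 26.1; 3625 UMIs). Both genes thus had the same order over whole cultures, lowest with vitamin D3 and highest with Ndrg2-KO, and no 2 of their intervals overlapped. Klrb1b, the inhibitory NKR-P1 receptor, had another order: 6.57 CPM (6.14 to 7.02; 871 UMIs) untreated, 1.28 CPM (1.08 to 1.502; 149 UMIs) with vitamin D3 and 3.08 CPM (2.80 to 3.38; 442 UMIs) with Ndrg2-KO. It was highest without treatment and lowest with vitamin D3.

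Nkg7, the granule membrane gene, stood at 1.32 CPM (175 UMIs) untreated, 0.807 CPM (94 UMIs) with vitamin D3 and 0.202 CPM (29 UMIs) with Ndrg2-KO. Its order was the reverse of that of Klrd1 for the knockout: lowest where Klrd1 was highest. Klrb1c, the NK1.1 gene, was close to absent, with 16, 0 and 39 UMIs. The Ly49 genes Klra4 and Klra8 had 0 UMIs in all 3 cultures, where 3 UMIs would be 0.0226 CPM in the untreated culture. Of the 7 members, 2 were thus not detected in any culture and a further member was barely detected.

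Against the untreated culture, the log2 ratio of the Ndrg2-KO culture was 2.41 (2.23 to 2.58) for Klrd1, 0.83 (0.75 to 0.91) for Klrk1, -1.09 (-1.26 to -0.93) for Klrb1b, 1.17 (0.30 to 2.11) for Klrb1c and -2.71 (-3.33 to -2.14) for Nkg7. Of the 5 members with at least 20 UMIs over the pair of cultures, 2 (Klrd1 and Klrb1c) were at least 2-fold higher and 2 (Klrb1b and Nkg7) at least 2-fold lower with Ndrg2-KO, where 11.3% of 14484 genes were that much higher and 10.9% that much lower. The members thus went both ways in the whole cultures. The choice of members used this contrast, so nothing is read from the counts. In cells under 5% mitochondrial UMIs, which were 43.1% of kept untreated and 21.6% of kept Ndrg2-KO cells, Klrd1 stood at 2.95 and 9.02 CPM and its whole-culture log2 ratio was 1.61. Mature DC-like cells made up 32.6% of those untreated cells and 20.8% of those Ndrg2-KO cells. The part of that share in the change was not tested.

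With vitamin D3 the log2 ratio to untreated was -1.84 for Klrd1, -1.60 for Klrk1, -2.36 for Klrb1b and -0.71 for Nkg7, and Klrb1c was at least 4.69-fold lower with 0 UMIs taken as 3. Of the 4 members with enough UMIs, 3 (Klrd1, Klrk1 and Klrb1b) were at least 2-fold lower, where 8.49% of 14318 genes were, and 0 were at least 2-fold higher, where 5.10% were. All members with enough UMIs had lower levels with vitamin D3. Setting the treated cultures side by side, 4 of 5 members (Klrd1, Klrk1, Klrb1b and Klrb1c) were at least 2-fold higher with Ndrg2-KO than with vitamin D3, where 14.1% of genes were, and Nkg7 was at least 2-fold lower, where 11% were. These comparisons share libraries, and the choice of members used the Ndrg2-KO culture, so nothing is read from its contrast with vitamin D3 either.

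Cells were clustered jointly over the 3 cultures with the killer lectin-like receptor genes, Nkg7 and Ndrg2 kept out of the variable genes. Clusters named mature DC-like from 8 marker genes held 2717 untreated, 3485 VD3 and 2111 Ndrg2-KO cells, or 37.4%, 39.5% and 26.5% of each culture. All 8 markers were detected in each, with summed levels of 17027, 12055 and 24599.8 CPM, and Ccl5, a chemokine gene, was the most abundant at 8753, 5483 and 18431 CPM. The markers named the clusters, so they describe these cells and do not test the name. The clusters were mostly those of a single culture: cluster 2 held 2602 untreated cells, cluster 1 held 3291 VD3 cells and cluster 6 held 1834 Ndrg2-KO cells, so cluster and culture largely cannot be told apart.

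In mature DC-like cells Klrd1 stood at 3.47 CPM (2.93 to 4.08; 145 UMIs) untreated, 1.23 CPM (0.945 to 1.58; 62 UMIs) with vitamin D3 and 55.2 CPM (52.4 to 58.2; 1406 UMIs) with Ndrg2-KO. Klrk1 stood at 35.9 CPM (34.1 to 37.8; 1502 UMIs), 9.70 CPM (8.86 to 10.6; 488 UMIs) and 112 CPM (108 to 117; 2864 UMIs). Both were highest in the Ndrg2-KO cells and lowest in the VD3 cells, and Klrk1 exceeded Klrd1 in each culture. Klrb1b was low in these cells, at 0.670 CPM (28 UMIs), 0.0994 CPM (5 UMIs) and 0.628 CPM (16 UMIs), and Nkg7 had 5, 7 and 3 UMIs. Klrb1c, Klra4 and Klra8 had 0 UMIs in all of them. Klrd1 and Klrk1 were thus the most abundant members in mature DC-like cells of each culture, with Klrd1 low in the untreated and VD3 cells.

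The log2 ratio of Ndrg2-KO to untreated mature DC-like cells was 3.99 (3.74 to 4.25) for Klrd1, a 15.9-fold difference, and 1.65 (1.56 to 1.74) for Klrk1, a 3.13-fold difference. For Klrb1b it was -0.09 (-1.08 to 0.84), so no difference was detectable at this depth. The median log2 ratio of well-counted genes in these sums was 0.20. Of 3 members with enough UMIs, 2 (Klrd1 and Klrk1) were at least 2-fold higher, where 11.8% of 12385 genes were, and 0 at least 2-fold lower, where 5.21% were. The choice of members used this contrast too, and nothing is read from it. Among 8154 genes ranked by that ratio Klrd1 was at place 31 and Klrk1 at place 265, so other genes stood further apart. Among the largest were Ctse, an aspartic protease gene (log2 ratio 8.27), Adgrg5, an adhesion receptor gene (7.71), Cxcl14, a chemokine gene (6.76), and Rasl10a, a small GTPase gene (6.13).

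With vitamin D3 the log2 ratio to untreated mature DC-like cells was -1.49 for Klrd1, -1.89 for Klrk1 and -2.75 for Klrb1b. All 3 members with enough UMIs were at least 2-fold lower, where 5.72% of 12585 genes were. Of them, 0 were at least 2-fold higher, where 4.38% were. Klrb1b had enough UMIs through the untreated cells alone (28 UMIs, against 5 with vitamin D3). Its place in the count of lower members is therefore not read. Klrk1 stood at place 44 from the lowest of 8621 genes ranked. In Ndrg2-KO against VD3 cells the log2 ratio was 5.49 for Klrd1 and 3.54 for Klrk1, and 3 of 3 members were at least 2-fold higher, where 12.0% of 12435 genes were, with 0 at least 2-fold lower, where 5.30% were. The choice of members used the Ndrg2-KO mature cells, so nothing is read from that last contrast. Klrd1 and Klrk1 were thus both lower with vitamin D3 in mature cells.

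**Figure D1:**
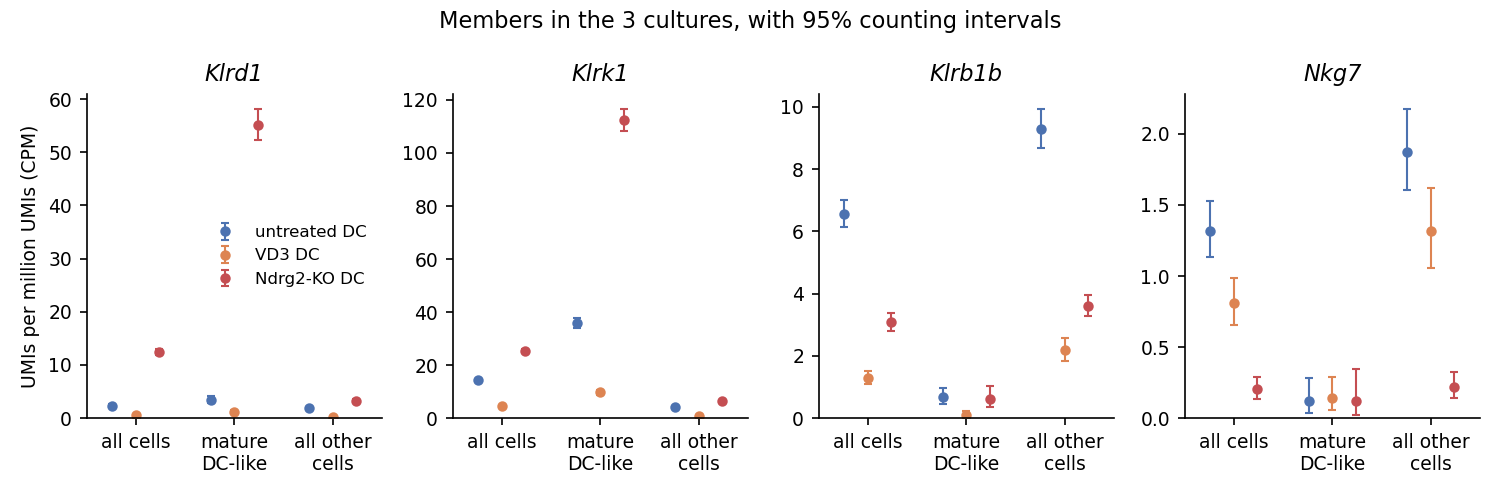
Level in CPM of Klrd1, Klrk1, Klrb1b and Nkg7 in the untreated, VD3 and Ndrg2-KO cultures, for all cells, for mature DC-like cells and for all other cells. Points are values of a single library and bars are exact 95% counting intervals, on linear axes that start at 0. Klrd1 and Klrk1 peak in mature DC-like cells of the Ndrg2-KO culture, at 55.2 and 112 CPM, whereas Klrb1b and Nkg7 are highest in the other cells of the untreated culture.

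The genes were picked as leaders of Ndrg2-KO mature cells, so nothing is read from their lean to mature cells in that culture. Klrd1 outside mature DC-like cells stood at 1.85, 0.227 and 3.301 CPM in the untreated, VD3 and Ndrg2-KO cultures, so the log2 ratio of mature cells to the rest was 0.91, 2.44 and 4.06. Klrk1 outside them stood at 4.22, 0.907 and 6.44 CPM, and the same ratio was 3.09, 3.42 and 4.13. Against the rest taken as a whole, the lean of Klrk1 was strong in the untreated and VD3 cultures and that of Klrd1 weak in the untreated culture. In small classes of the untreated culture, described below, cDC1-like cells held both genes at like or higher levels. Basophil-like cells held Klrd1 at a higher level, almost without Klrk1. Mature cells carried 46.3%, 80.5% and 78.3% of all Klrd1 UMIs and 79.7%, 89.1% and 79.0% of all Klrk1 UMIs. Klrb1b and Nkg7 leaned the other way, with mature-to-rest log2 ratios of -3.79, -4.45 and -2.52 for Klrb1b and -3.97, -3.24 and -0.90 for Nkg7.

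Inside the Ndrg2-KO culture Klrd1 was not held by a single cluster. In mature DC-like cluster 6 it stood at 57.1 CPM (1349 UMIs) and in the 157 Ndrg2-KO cells of mature DC-like cluster 2 at 32.4 CPM (23.8 to 43.1), where untreated cells of cluster 2 had 3.38 CPM (2.84 to 3.99). Klrk1 in the same cells of cluster 2 stood at 84.1 CPM (69.9 to 100.5) with Ndrg2-KO and 35.8 CPM untreated. These values come from the contrast that picked both genes, so they describe where the UMIs lay and nothing more is read from them. The 26 untreated cells that fell in cluster 6 had 7.45 CPM of Klrd1 (3 UMIs; 1.54 to 21.8) and 57.1 CPM of Klrk1 (23 UMIs; 36.2 to 85.7).

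Cluster 12, a cluster of 394 Ndrg2-KO cells that no marker list named, held Klrd1 at 19.5 CPM (166 UMIs) and Klrk1 at 44.0 CPM (375 UMIs). Its leading genes were Vcan, Ccl24 and Gdpd3. The Ndrg2-KO premature DC-like cells of cluster 0 held Klrd1 at 1.54 CPM and Klrk1 at 2.45 CPM, and the proliferating-like cells of cluster 10 held 3.35 and 5.70 CPM. Both genes had the order of clusters 6, 2, 12, 10 and 0 from high to low, with no overlap between the intervals of neighbours. The choice of the genes put the mature clusters at the top, so nothing is read from their place.

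Within the cultures Klrb1b was highest outside mature DC-like cells. The 77 untreated cDC1-like cells, the DC type that cross-presents antigen, held Klrb1b at 169 CPM (146 to 196; 185 UMIs), with Klrd1 at 22.0 CPM and Klrk1 at 42.1 CPM beside it. The 147 VD3 cDC1-like cells held Klrb1b at 25.2 CPM (18.6 to 33.3; 49 UMIs). The Ndrg2-KO culture had a single cell in that cluster, so no level is given for it there. Klrb1b was thus highest in cDC1-like cells, and lower in those of the VD3 culture. Outside them, the cells of untreated cluster 5, which had progenitor genes such as Elane and Prtn3 among its leading genes and was left unnamed, held it at 7.86 CPM and 50.9% of the untreated Klrb1b UMIs, and macrophage-like cluster 8 at 8.32 CPM. In the Ndrg2-KO culture it lay in premature DC-like cluster 0 (3.22 CPM, 54.1% of its UMIs) and proliferating-like cluster 10 (5.59 CPM). Of the 39 Ndrg2-KO UMIs of Klrb1c, 24 were in cluster 0 and 14 in cluster 10, and of its 16 untreated UMIs 10 were in cluster 5, 5 in cluster 8 and 1 in granulocyte-like cells.

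Nkg7 in the untreated culture lay mostly in cells with progenitor genes and in basophil-like cells. Cluster 5 held 78.3% of its UMIs at 2.43 CPM, and the 57 untreated basophil-like cells held it at 38.0 CPM (24.1 to 57.0). Those basophil-like cells also held Klrd1 at 33.0 CPM (20.2 to 51.0; 20 UMIs) with 1 UMI of Klrk1. In the untreated culture Klrd1 was thus almost without Klrk1 in basophil-like cells and together with it in mature DC-like and cDC1-like cells. In the VD3 culture 31 cells of cluster 5 held Nkg7 at 91.0 CPM (44 UMIs). Nkg7, which NK cells carry at a high level, was therefore nearly absent from the mature DC-like cells that held Klrd1 and Klrk1.

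Shares of cells show how widely the receptors were spread. Of mature DC-like cells, 4.38% untreated, 1.66% VD3 and 32.4% Ndrg2-KO cells held a Klrd1 UMI. When each cell was drawn down to 2000 UMIs these shares were 0.592%, 0.405% and 9.09%, leaving out 13, 31 and 31 shallower cells. A Klrk1 UMI was held by 31.7%, 10.8% and 61.1% of them, and by 7.88%, 2.11% and 20.5% after drawing down. Both receptors were thus detected in the largest share of cells in the Ndrg2-KO culture, at equal depth as well. Granulocyte-like cells gave the background. Of 927 untreated cells 0 held Klrd1, with an approximate limit of 0.324%, and 2 (0.216%) held Klrk1. Their median was 2965 UMIs against 14363 in mature DC-like cells. In the VD3 culture 0 of 1119 held either gene, at a median of 2854 against 13362 UMIs. After drawing down, 0 of 660 untreated granulocyte-like cells held Klrd1, with an approximate limit of 0.455%, and 1 (0.152%) held Klrk1. In the VD3 culture 0 of 818 drawn granulocyte-like cells held Klrd1, with an approximate limit of 0.367%. The drawn shares of Klrd1 in untreated and VD3 mature cells thus lay close to the limits of their own cultures. These approximate limits lie below the exact ones, so neither drawn share is read as above background. The Ndrg2-KO culture had 35 granulocyte-like cells, too few to give a background of its own. Of these 0 held either gene (approximate limit 8.57%), at a median of 3741 against 10696 UMIs.

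**Figure D2:**
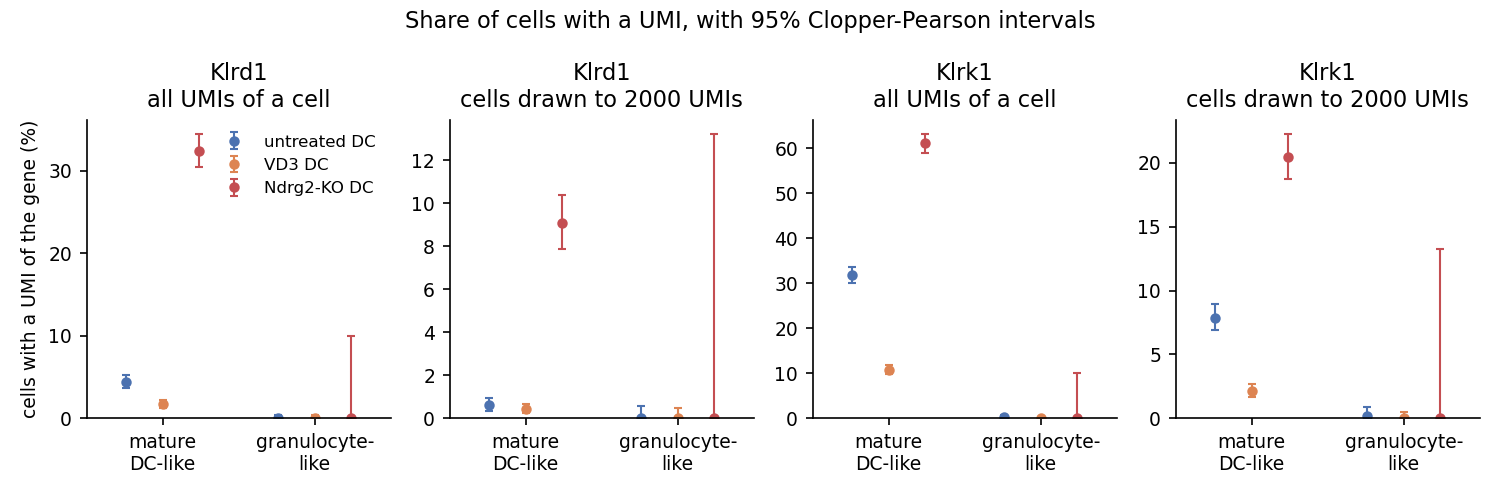
Percent of mature DC-like and granulocyte-like cells with at least 1 UMI of Klrd1 or Klrk1 in the 3 cultures, with all UMIs of a cell and after drawing each cell to 2000 UMIs. Points are shares in a single library and bars exact 95% Clopper-Pearson intervals, on linear axes that differ between panels. At equal depth 9.09% of Ndrg2-KO mature DC-like cells held Klrd1 and 20.5% held Klrk1. The wide bars on the right belong to the few granulocyte-like cells of the Ndrg2-KO culture.

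Cells with the receptors also held more copies. Mean Klrd1 UMIs in a mature DC-like cell that held any were 1.22 untreated, 1.07 with vitamin D3 and 2.05 with Ndrg2-KO, with a maximum of 4, 2 and 33. For Klrk1 the means were 1.74, 1.30 and 2.22, with a maximum of 9, 5 and 12. Both the share of cells and the count within them were thus highest with Ndrg2-KO. Of 685 Ndrg2-KO mature cells with Klrd1, 532 (77.7%) also held Klrk1, against 53.2% of those without Klrd1. In the untreated culture 59 of 119 (49.6%) did so against 30.9%, and in the VD3 culture 13 of 58 (22.4%) against 10.6%. Cells with more UMIs have more chance to hold both. After drawing to 2000 UMIs, 44 of 189 Ndrg2-KO cells with Klrd1 held Klrk1 (23.3%) against 20.2% of those without, so the contrast was small at equal depth in that culture. In the untreated culture 4 of 16 (25%) did against 7.78%, and in the VD3 culture 0 of 14 against 2.12%, counts too small to compare.

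The members are best known from NK cells, so NK and T cell markers were counted in the same cells. In Ndrg2-KO mature DC-like cells 2 of 10 NK markers were detected, at a summed 2.24 CPM: 53 UMIs of Txk, a kinase gene, and 4 of Il2rb. The defining markers Ncr1, Gzma, Gzmb, Prf1, Eomes and Tbx21 were at 0. Untreated mature cells held 3 of 10 at 5.38 CPM, with 218 of 225 UMIs from Txk, and VD3 mature cells 3 of 10 at 2.58 CPM, with 128 of 130 from Txk. The NK list was thus almost only Txk in all 3 cultures. T cell markers summed to 0.885, 0.835 and 0.628 CPM, with Cd3e, Trbc1 and Trbc2 at 0 in the Ndrg2-KO cells. Among the 685 Ndrg2-KO mature cells with Klrd1 the NK list summed to 2.50 CPM, 23 of its 24 UMIs from Txk, and among those without to 2.08 CPM. Leaving out, after the data had been seen, the mature cells that held a UMI of a T cell marker or of an NK marker other than Txk took away 28 untreated and 20 Ndrg2-KO cells. Klrd1 then stood at 3.44 and 55.1 CPM and Klrk1 at 35.8 and 113 CPM. The levels of both receptors were as large without those cells.

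In the wounds the NK-like cells were few: 22 with control DCs, 29 with Ndrg2-KO DCs and 28 with blank hydrogel, or 1.13%, 0.510% and 0.823% of kept cells. They formed a cluster with 10 of 10 NK markers, whose leading genes were Gzmg, Gzmf, Gzmd and Gzme, all granzyme genes, and Klra4 was among its 10 leading genes. Summed NK markers stood at 8789.7, 9568 and 6061 CPM, with Gzma the most abundant at 4831, 5539 and 2991 CPM. T cell markers summed to 654, 831 and 774 CPM, with Trbc1 the most abundant, while Cd3e had 0, 7 and 0 UMIs. The NK list named the cluster, so these sums describe it and do not test the name. These clusters appeared with 30 principal components. With 15 the same cells lay mostly in a cluster of 151, 269 and 129 cells that mixed NK, T and mast cell markers and could not be named, where Klrd1 stood at 142, 211 and 168 CPM.

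All 7 members were detected in NK-like cells of all 3 wounds. Nkg7 was highest, at 808 CPM (126 UMIs) with control DCs, 946 CPM (288 UMIs) with Ndrg2-KO DCs and 981 CPM (247 UMIs) with blank hydrogel. Klra4 came next in each wound, at 391, 328 and 536 CPM, and Klra8 stood at 321, 236 and 306 CPM. Klrd1 stood at 289 CPM (211 to 386), 315 CPM (255 to 385) and 485 CPM (402 to 579), and Klrk1 at 379 CPM (288 to 488), 223 CPM (173 to 283) and 381 CPM (309 to 466). Klrb1b stood at 225, 167 and 258 CPM, and Klrb1c was lowest at 77.0, 121 and 103 CPM. Nkg7 was thus at the top and Klrb1c at the bottom of the order in every wound, with the receptors between them overlapping in part.

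Each wound gave few NK-like cells, so levels are compared between wounds with care. Klrd1, Klrk1, Klra4, Klrb1b and Nkg7 were highest with blank hydrogel. With NK-like cells taken instead by their markers, Klrd1 stood at 282 CPM (203 to 381), 286 CPM (222 to 363) and 404 CPM (329.9 to 490.2), and the intervals overlapped. The log2 ratio of the wound with Ndrg2-KO DCs to that with control DCs was 0.13 (-0.40 to 0.67) for Klrd1, -0.76 (-1.29 to -0.23) for Klrk1, -0.25 (-0.73 to 0.23) for Klra4 and 0.23 (-0.08 to 0.54) for Nkg7. Klrk1 alone among these had an interval clear of 0, and its level was lower with Ndrg2-KO DCs. It rested on 59 UMIs with control DCs and 68 with Ndrg2-KO DCs, with up to 11 and 9 in a cell. The interval does not cover the spread between cells. Drawn to 1000 UMIs, 7 of 22 and 9 of 29 cells held Klrk1, which are like shares. The choice of cells by markers was run for Klrd1 only. After drawing each cell to 1000 UMIs, 31.8%, 31.0% and 32.1% of NK-like cells held Klrd1, against 72.7%, 79.3% and 85.7% undrawn, with no cell left out. Any member was held by 86.4%, 93.1% and 96.4% of them when drawn and by all of them undrawn. Klrd1 and Klrk1 were held together by 13 of 22, 18 of 29 and 20 of 28 cells, and Klra4 and Klra8 by 4, 9 and 9 cells of the 9, 14 and 14 with Klra4. Klrb1c was held by 9, 17 and 18 cells and Klrb1b by 16, 15 and 20. Nkg7 was thus held by nearly all NK-like cells, and Klrb1c and the Ly49 genes by part of them.

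**Figure D3:**
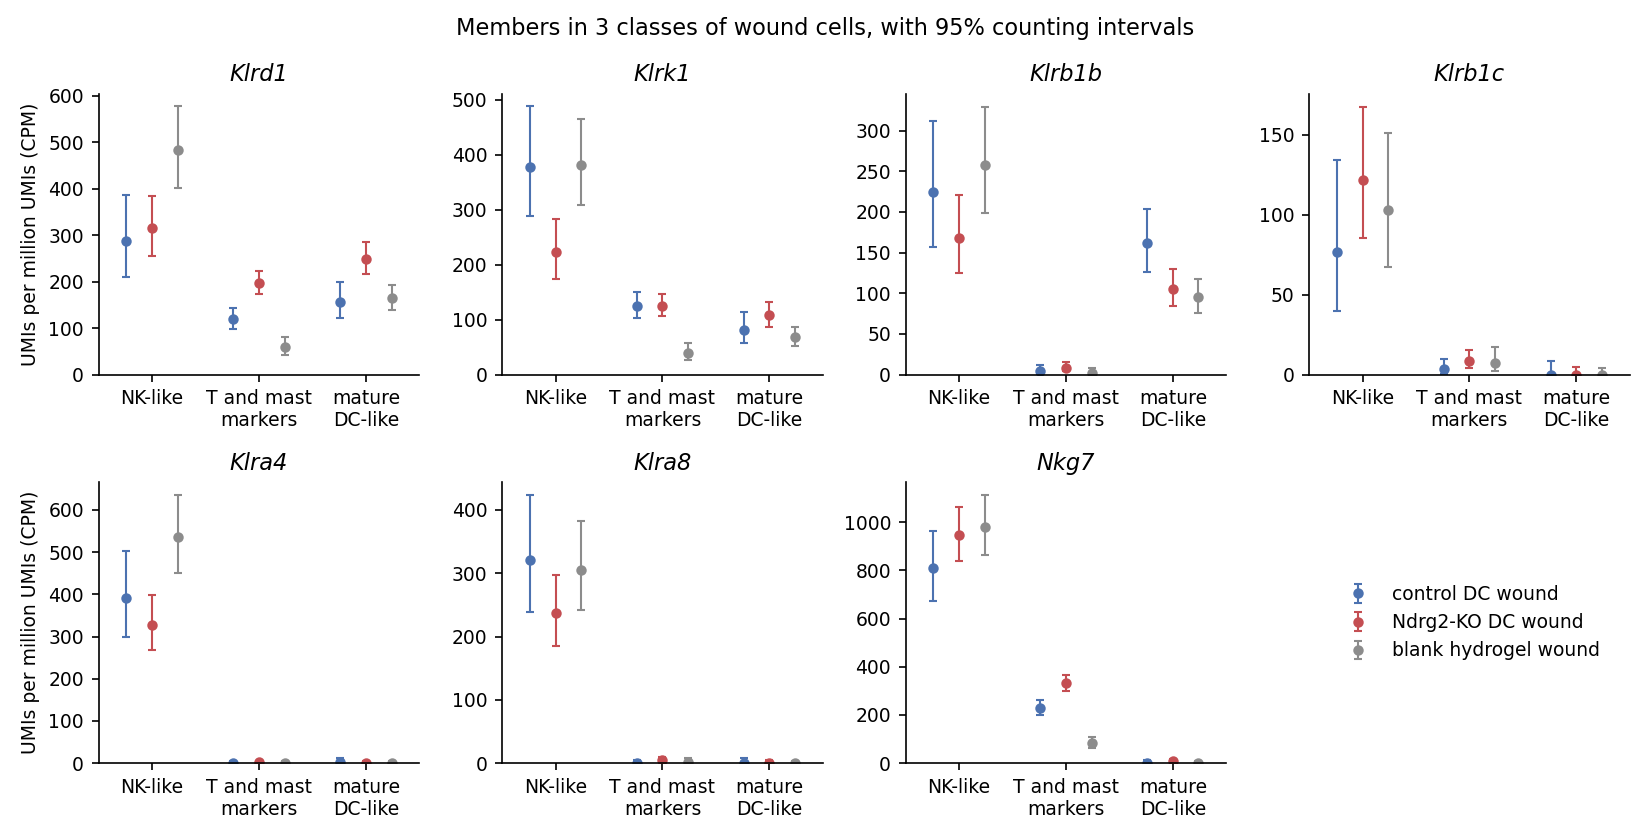
CPM of the 7 members in NK-like cells, in cells of an unnamed cluster with T and mast cell markers and in mature DC-like cells of the 3 wounds. Points are values of a single library and bars exact 95% counting intervals, on linear axes that start at 0 and differ between panels. Klrd1, Klrk1 and Klrb1b are present in NK-like and in mature DC-like cells, whereas Nkg7, Klra4, Klra8 and Klrb1c are high in NK-like cells and near 0 in mature DC-like cells.

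Mature DC-like cells of the wounds, 32, 72 and 71 in the order above, held some members as well. They passed 8 of 8 mature DC markers, with Ccr7, Ccl22 and Il12b as leading genes, and no cell was in both the NK-like and the mature DC-like cluster. Klrd1 stood at 157 CPM (122 to 199; 69 UMIs) with control DCs, 249 CPM (216 to 286; 203 UMIs) with Ndrg2-KO DCs and 165 CPM (140.0 to 194; 153 UMIs) with blank hydrogel. Klrk1 stood at 82.1, 108 and 68.0 CPM and Klrb1b at 162, 106 and 94.995 CPM. These receptors were thus present in wound mature DC-like cells also where no DCs had been given. Klrb1c and Klra8 had 0 UMIs there, Klra4 had 1, 0 and 0, and Nkg7 had 1, 7 and 2.

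The split between the classes lay between members. The log2 ratio of NK-like to mature DC-like cells was 0.88, 0.34 (-0.03 to 0.70) and 1.55 for Klrd1 and 2.21, 1.05 and 2.49 for Klrk1, but 8.47, 6.78 and 8.83 for Nkg7. Klra4 was 7.42 (4.89 to 12.75) on that scale with control DCs, at least 89.2-fold higher with Ndrg2-KO DCs and at least 166-fold higher with blank hydrogel. The classes thus lay far closer for Klrd1 and Klrk1 than for Nkg7 and Klra4. The log2 ratio of Klrd1 in mature DC-like cells between wounds with Ndrg2-KO and control DCs was 0.66 (0.26 to 1.08), and it was 0.59 (0.28 to 0.91) against blank hydrogel. Without the cells that held lymphocyte markers, described next, the levels lay closer. The interval with Ndrg2-KO DCs (181 to 252 CPM) then overlapped those with control DCs (116 to 194 CPM) and blank hydrogel (128 to 184 CPM).

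Some wound mature DC-like cells held markers of lymphocytes. NK markers had 3, 50 and 25 UMIs in them and T cell markers 16, 134 and 88 UMIs, with Ncr1 and Eomes at 0. With Ndrg2-KO DCs all 134 T cell marker UMIs and 49 of 50 NK marker UMIs were in the 38 cells with Klrd1. Without the 2, 8 and 7 cells that held a UMI of a T cell marker or of an NK marker other than Txk, an alternative chosen after the data had been seen, Klrd1 stood at 151, 214 and 154 CPM, Klrk1 at 85.4, 105 and 65.7 CPM and Klrb1b at 168, 118 and 99.8 CPM, and Nkg7 had 0 UMIs. Klrd1 with Ndrg2-KO DCs thus fell outside its interval for all cells, the other levels stayed within theirs, and the few Nkg7 UMIs were all in the cells left out. The interval of Klrd1 with Ndrg2-KO DCs, 181 to 252 CPM, then lay just below that of NK-like cells in the same wound, 255 to 385 CPM. With NK-like cells taken by their markers that interval was 222 to 363 CPM and overlapped it, so no separation is read from this. Whether those cells were doublets was not tested.

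A cluster of 130, 244 and 103 wound cells with T and mast cell markers, left unnamed, held Klrd1 at 119, 198 and 58.8 CPM, Klrk1 at 125, 126 and 39.7 CPM and Nkg7 at 229, 332 and 82.3 CPM. Klrb1b was low there, at 4.59, 8.74 and 1.47 CPM, and Klra4 had 0, 2 and 0 UMIs. This was another pattern than in mature DC-like cells: Nkg7 with Klrd1, and almost no Klrb1b. Elsewhere in the wounds Klrd1 stood at 1.21, 1.77 and 1.997 CPM. NK-like cells held 98.4%, 82.0% and 83.9% of all Klra4 UMIs and 92.6%, 77.4% and 82.8% of all Klra8 UMIs, but 17.9%, 15.2% and 32.0% of Klrd1 UMIs.

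Side by side, Klrd1 stood at 55.2 CPM in Ndrg2-KO mature DC-like cells of the culture, and Klrk1 at 112 CPM. Wound mature DC-like cells had 157 to 249 CPM of Klrd1 and 68.0 to 108 CPM of Klrk1, and wound NK-like cells had 289 to 485 and 223 to 381 CPM. The edited culture cells thus stood below both wound classes for Klrd1, and above or level with wound mature DC-like cells for Klrk1. Klrb1b separated the mature cells of culture and wound, at under 1 CPM in each culture and at 94.995 CPM or more in each wound. Culture and wound differ in tissue and in the Cell Ranger version used, so no ratio is given.

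Other genes of the family were read from a list of 23 symbols, of which 20 are in the matrices and 8 reached 20 UMIs in a culture. Of 8 with enough UMIs over the Ndrg2-KO and untreated cultures, 4 were at least 2-fold higher and 1 at least 2-fold lower, where 11.3% and 10.9% of 14484 genes were, with a median log2 ratio of 1.19 against -0.06 over all genes. The Ly49 gene Klra17 had 23, 3 and 1220 UMIs in the untreated, VD3 and Ndrg2-KO cultures (log2 ratio 5.61), and Klrb1a, an activating NKR-P1 gene, had 188, 65 and 1405 (2.79). Klra3, another Ly49 gene, had 12, 3 and 147, and Klri2, a gene for an activating receptor chain, was the fourth. Klra3 reached 20 UMIs in that pair through the Ndrg2-KO culture alone. Klrb1f, an activating NKR-P1 gene, went the other way with 513, 68 and 35 UMIs (-3.99). The family was thus mixed, and Klra17 and Klrb1a lay mostly outside mature cells, which held 98 and 21 of their Ndrg2-KO UMIs. With vitamin D3 all 7 with enough UMIs were at least 2-fold lower, where 8.49% of 14318 genes were. Their median log2 ratio was -2.03 against -0.07 over all genes. Klra17 (23 untreated and 3 VD3 UMIs) and Klri2 (26 and 6) reached 20 UMIs through the untreated culture alone. Nothing is read from their place in that count. In mature DC-like cells 2 of 4 (Klre1 and Klri2) were at least 2-fold lower, where 5.72% of 12585 genes were, with a median of -0.63. Both reached 20 UMIs through the untreated cells alone (47 and 23 UMIs against 17 and 5). Nothing is read from that count. Klrb1a (7 and 16 UMIs) and Klrg2 (28 and 47), a little-studied member of the family, had log2 ratios of 0.93 and 0.48, short of 2-fold.

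In mature DC-like cells 4 of 5 family genes with enough UMIs were at least 2-fold higher with Ndrg2-KO, where 11.8% of 12385 genes were: Klre1, Klri2, Klrb1a and Klra17, with a median log2 ratio over the 5 of 2.10 against 0.21 over all genes. Klrb1a (7 untreated and 21 Ndrg2-KO UMIs) and Klra17 (2 and 98) reached 20 UMIs through the Ndrg2-KO cells alone. The list was chosen with earlier results of these data known, so nothing is read from this count or median. Klre1 and Klri2 pair with each other as receptor chains. Klre1 had 47, 17 and 66 UMIs in untreated, VD3 and Ndrg2-KO mature cells (log2 ratio 1.20), and Klri2 had 23, 5 and 60 (2.10). Their order over the cultures was that of Klrd1 and Klrk1. Klrc1, which encodes NKG2A, the inhibitory partner of CD94, had 0 UMIs in all 3 cultures and stood at 192, 75.5 and 139 CPM in wound NK-like cells. Klrc2, which encodes the activating partner NKG2C, had 5, 1 and 1 UMIs in the cultures. Klrd1 was thus present in cultured mature DCs with almost no transcript of its NKG2 partners.

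Adaptor and signalling genes were read from a list of 14, of which 11 had enough UMIs. In whole cultures 0 were at least 2-fold higher or lower with Ndrg2-KO, where 11.3% and 10.9% of 14484 genes were. In mature DC-like cells 3 were at least 2-fold higher and 0 lower, where 11.8% and 5.21% of 12385 genes were: Sh2d1b1, which encodes the adaptor EAT-2, stood at 32.2, 11.5 and 128 CPM in untreated, VD3 and Ndrg2-KO cells (log2 ratio 1.99), Lcp2, the scaffold SLP-76, had a log2 ratio of 1.71, and Vav1, an exchange factor, of 1.02. The median over the list was 0.38, against 0.21 over all genes. Tyrobp, which encodes DAP12, was abundant without a difference of that size, at 584, 474 and 593 CPM. Hcst, which encodes DAP10, the NKG2D adaptor, was at 7.32, 8.31 and 9.46 CPM, against 353, 312 and 357 CPM in wound NK-like cells. Klrk1 was thus accompanied by much Tyrobp and little Hcst in cultured mature cells.

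Ligands of the receptors were read from a list of 19, of which 14 are in the matrices. H2-T23, which encodes Qa-1, the ligand of CD94 with NKG2 chains, stood at 213, 272 and 501 CPM in mature DC-like cells (log2 ratio 1.23 with Ndrg2-KO). It was the single gene of 8 with enough UMIs that was at least 2-fold higher, where 11.8% of 12385 genes were. Clec2g, a lectin ligand gene with 49, 30 and 3 UMIs, was the single gene at least 2-fold lower, where 5.21% were, and the list had a median of 0.39. Raet1e, an NKG2D ligand gene, had 326, 503 and 30 UMIs in the whole cultures. Over whole cultures 1 of 10 (H2-T23) was at least 2-fold higher and 2 (Clec2g and Raet1e) lower, where 11.3% and 10.9% of 14484 genes were. These counts rest on 1 or 2 genes each, so nothing is read from them about the list.

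Of 12 cytotoxic granule genes, 5 had enough UMIs, and 0 were at least 2-fold higher or lower in Ndrg2-KO mature DC-like cells, where 11.8% and 5.21% of all genes were, with a median log2 ratio of 0.51. Over whole cultures Lamp1, a lysosomal membrane gene, was higher and Serpinb9, the granzyme B inhibitor gene, lower by at least 2-fold, where 11.3% and 10.9% of all genes were. Gzma had 0 UMIs in all cultures, Gzmb had 1, 0 and 0, and Prf1 had 0, 1 and 0. Cultured mature DCs thus had the receptors with almost no Gzma, Gzmb or Prf1, while Serpinb9 stood at 239.8, 145 and 121 CPM in them. Wound NK-like cells had all of these genes. Of 14 NK programme genes, 7 had enough UMIs in mature cells and 1 was at least 2-fold higher, where 11.8% of all genes were: Il18r1, an interleukin 18 receptor gene, at 13.01, 4.33 and 44.9 CPM (log2 ratio 1.79), with 0 lower and a list median of 0.14. Over whole cultures 0 of 8 were at least 2-fold higher and 2 lower, where 11.3% and 10.9% of all genes were. The lower pair, Il15ra and Il12rb1, are cytokine receptor genes. The NK transcription factor genes Tbx21 and Eomes had 0, 1 and 1 and 0, 2 and 0 UMIs in the whole cultures.

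Likeness of pattern was measured as Pearson's r of log2 CPM over 25 sums of library by cluster from the 3 cultures, which share libraries and clusters and are not independent. The genes most like Klrd1 among 12106 were Il18r1 (r 0.814), Lztfl1, Cd48, Pxdc1 and Tbc1d4. Those most like Klrk1 were Mx1 (r 0.868) and Bst2, which interferon induces, with Kynu, Serpinb1b and Cd86, a costimulatory gene. Those most like Klrb1b were Tlr3 (r 0.905), a receptor of cDC1 cells, with Hsd17b4, H2-DMa, Slc8a1 and Cd6. Klrd1 and Klrk1 had an r of 0.744 with each other, whereas Klrb1b had -0.02 with Klrd1 and 0.05 with Klrk1. Klrd1 and Klrk1 were picked by their levels in Ndrg2-KO mature cells, which are among the sums, so nothing is read from these 3 values.

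On the GRCm38 build, the 6 lectin-like members lie within 1.35 Mb of chromosome 6, from base 128778485 to base 130129898, and Nkg7 lies on chromosome 7. Klrd1 (ENSMUSG00000030165, chr6:129591782-129598775, plus strand) and Klrk1 (ENSMUSG00000030149, chr6:129610323-129623864, minus strand) are neighbours whose genes point toward each other. The methods name mm10, which is GRCm38, whereas the submitters' processing notes list mm9. Of the gene identifiers, 99.9% of 31053 are in the GENCODE M21 annotation of GRCm38. Klrb1b and Klrb1c are overlapped by Gm44511 on the same strand, which had 0 UMIs in all 6 libraries. Of 90-base windows in the last 500 bases of the transcripts, 14.0% for Klrb1b and 11.4% for Klrb1c also occur in another gene, and 0 for the other members. Those of Klrb1b occur in Gm44511, and those of Klrb1c in Gm44511 and Klrb1a. Klrb1a had 188, 65 and 1405 UMIs in the untreated, VD3 and Ndrg2-KO cultures. These windows thus tell Klra4 from Klra8, while part of the Klrb1b and Klrb1c sequence is shared with other genes. Whether this changed their counts was not tested.

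RefSeq promoters of GRCm38.p6, which span 300 bases around each start, are given for Klrk1, which was high beside Klrd1 in Ndrg2-KO mature cells, and for Klrb1b and Nkg7, which were not. Of the 7 members, 6 have an entry, and Klrd1 has none. Capitals mark 4 motifs found on either strand: GAGGAA (read by PU.1), TGTGGT (RUNX factors), TGANTCA (AP-1) and TCACACC (T-box factors), held by 28.3%, 16.8%, 7.81% and 3.98% of 32851 promoters. Klrk1 (chr6:129623815-129624114, minus strand) holds 1 RUNX and 1 AP-1 match. Klrb1b (chr6:128826259-128826558, minus strand) holds 1 PU.1 match, and Nkg7 (chr7:43436888-43437187, plus strand) holds 1 RUNX and 1 T-box match. The letters thus differ between the 3, and a match describes the sequence and does not show that a factor binds.
Klrk1: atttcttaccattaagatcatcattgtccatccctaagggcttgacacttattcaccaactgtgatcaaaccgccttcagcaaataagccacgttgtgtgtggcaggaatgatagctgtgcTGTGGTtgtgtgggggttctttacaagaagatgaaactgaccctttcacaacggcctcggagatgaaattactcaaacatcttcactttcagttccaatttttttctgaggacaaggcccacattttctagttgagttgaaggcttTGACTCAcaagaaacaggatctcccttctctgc
Klrb1b: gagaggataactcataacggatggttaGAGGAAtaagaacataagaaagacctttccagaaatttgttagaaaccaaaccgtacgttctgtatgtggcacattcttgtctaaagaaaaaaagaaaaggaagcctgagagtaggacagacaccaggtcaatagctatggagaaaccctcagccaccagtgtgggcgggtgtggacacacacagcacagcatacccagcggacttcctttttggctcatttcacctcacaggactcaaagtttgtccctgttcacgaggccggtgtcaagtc
Nkg7: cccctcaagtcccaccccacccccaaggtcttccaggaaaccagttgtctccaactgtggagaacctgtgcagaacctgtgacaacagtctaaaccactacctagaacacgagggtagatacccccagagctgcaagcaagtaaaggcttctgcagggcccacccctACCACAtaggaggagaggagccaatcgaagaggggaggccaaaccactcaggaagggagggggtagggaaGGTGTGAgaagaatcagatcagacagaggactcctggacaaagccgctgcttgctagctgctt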

How the data were processed

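The authors deposited raw counts: UMIs per gene and cell barcode from Cell Ranger 3.1.0 for the cultures and 6.0.0 for the wounds, per the file headers. The members and lists were chosen with earlier results of these data known. Cells were kept as stated and doublets were kept. Scrublet (scanpy 1.11.5) called under 1% of cells in each library, and whether it found most doublets was not tested. Leaving out the highest 6% of doublet scores was run on ratios between the cultures only. Seurat 5.3.0 (R 4.3.3) clustered cultures and wounds apart: log-normalisation to 10000, 2000 variable genes less the killer lectin-like receptor genes, Nkg7 and Ndrg2, 15 principal components, 15 neighbours and Louvain resolution 0.5. Clusters were named from marker lists. For NK-like cells 30 components were used, chosen after seeing that 15 gave no cluster that could be named so, except with the left-out genes put back (Klrd1 275, 312 and 483 CPM). UMIs were summed over cells in Python 3.11.15 with scipy 1.17.1. Intervals are Poisson for levels, conditional binomial for ratios and Clopper-Pearson for shares. In the text the limit of a share of 0 takes 0 as 3 cells and lies below the exact one. Genes with at least 20 UMIs in the pair of sums were counted at 2-fold, and a count of 0 was set to 3 UMIs for folds. The steps were tested on simulated data. Genes named were the 7 members, list genes past 2-fold, the 5 genes most like each of Klrd1, Klrk1 and Klrb1b, and genes among the largest rises in Ndrg2-KO mature DC-like cells; markers, leading genes of clusters, Gm44511, Tyrobp, Hcst and list genes at or near 0 were named after their values were seen. No tests were made. Alternatives are given in the closing section.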

Additional observations from a re-analysis of the deposited data

How the results depend on the processing

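All 40 log2 ratios of Klrd1 and Klrk1 between Ndrg2-KO and untreated cultures recomputed under alternatives stayed above 0, and 31 lay within the main interval. With cells under 5% mitochondrial UMIs the ratio was 1.61 for Klrd1 and 0.33 for Klrk1 in whole cultures and 3.51 for Klrd1 in mature DC-like cells. Klrk1 in whole cultures was 0.99 with all barcodes, 1.11 as a mean over cells and 0.73 without mitochondrial and ribosomal protein genes. With mature cells taken as those holding 3 of 8 markers, Klrd1 was 3.70 and Klrk1 1.54, and median-ratio scaling gave 1.45 for Klrk1 in mature DC-like cells. At 3-fold, 1 member was higher and 1 lower in whole cultures. Klrd1 in the mixed wound cluster of 15 components was 142, 211 and 168 CPM. The cause was not tested in any of these. Resolution 1.0 gave no NK-like cluster, and the limits on UMIs and on barcodes were run on whole cultures only. Of 36 shares at other depths 28 left their main interval, as they follow depth. Of 9 wound mature DC-like levels without cells holding lymphocyte markers, an alternative chosen after seeing the data like those on the largest cluster and on cluster 13, 8 stayed within their interval. Few NK-like cells limit the wound values, and a count of 0 limits a level only to 3 UMIs.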
